A study of Mus musculus with 34 samples.

Results

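H3K4me3 was examined at the promoters of 10 genes that encode subunits of the Polycomb complexes (Ezh1, Ezh2, Eed, Suz12, Bmi1, Ring1, Rnf2, Cbx2, Cbx7 and Cbx8). The genes were listed by name, without a threshold on their signal but with earlier results of these data known, and each was represented by the mean H3K4me3 signal within 1000 bp of its annotated 5′ end, which gave 10 of the 21938 protein-coding promoters on 21 chromosomes. The mark was profiled by CUT&RUN, in which an antibody-tethered nuclease releases the DNA around a histone modification. Cells were scraped from the villi of small intestine that still looked normal, from 2 wild-type (WT, C57BL/6J) mice and 2 ApcMin/+ (C57BL/6J-ApcMin/J) mice, 1 library a mouse, with no drug treatment named in the labels. ApcMin/+ mice carry a germline truncating allele of the tumour suppressor Apc, so that every cell is heterozygous and no tissue-specific Cre is involved. The sample labels gave 5 weeks of age for all 4 mice and the series' design text 5 to 6 weeks. The scraped cells were a bulk mixture, so fewer cells carrying the mark and less of the mark per cell cannot be told apart.

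Polycomb proteins keep developmental genes silent and act in a pair of complexes. Polycomb repressive complex 2 (PRC2) writes H3K27me3. In it Ezh2 or its paralog Ezh1 is the methyltransferase, Suz12 holds the complex together and Eed binds the finished mark and stimulates the enzyme. Polycomb repressive complex 1 (PRC1) places ubiquitin on histone H2A through the RING-finger ligases Ring1 and Rnf2, with Bmi1 (Pcgf4) as a partner of the ligase, and Cbx2, Cbx7 and Cbx8 are alternative chromodomain subunits that bind H3K27me3. In the intestine, Ezh2 and Bmi1 are best known from the dividing crypt compartment, and villus cells are mostly its differentiated progeny. H3K4me3 marks the starts of genes that are active or poised and is densest at CpG-rich promoters. Here it was read at the genes that encode the Polycomb machinery, not at the targets of that machinery.

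The libraries held 1430000 and 4790000 tags (aligned fragments) in WT replicates 1 and 2, and 3700000 and 5470000 in ApcMin/+ replicates 1 and 2. Signal is given as coverage scaled to 10000000 tags, and 1 fragment in a promoter window was worth between 0.0914 (ApcMin/+ replicate 2) and 0.349 (WT replicate 1). ApcMin/+ replicate 1 stood apart: 43.2% of its signal lay in enriched regions, against 11.9% to 22.6% in the other 3 libraries, and its background signal was the lowest at 0.198 (0.279 to 0.322 in the others). It was also the highest library at 98.6% of the 9930 promoters that were tested, those whose signal averaged 2 or more over the libraries. The enterocyte markers of the labelled tissue carried the mark, with 9 of 10 tested and a summed signal of 35.0 to 55.2 in WT and of 44.6 and 163 in ApcMin/+. None of the 8 immune or of the 8 mesenchyme and endothelium markers reached the testing minimum, their summed signals being 5.30 to 9.65 and 2.43 to 5.57. Among these, Ptprc was listed at 0 in WT replicate 1 and was at most 1.60, and Pdgfra was at most 0.456.

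RefSeq (GRCm38.p6, the same assembly as mm10) gave a promoter, from 250 bases before to 50 after the start, for 9 of the 10 genes and none for Cbx2. The stretches below run 5′ to 3′, stop before the first exon of any coding transcript, and carry in capitals each match on either strand to a CCAAT box (CCAAT), a GC box (GGGCGG), an E2F motif (TTTGGCGC, TTTCCCGC, TTTGGCGG or TTTCCCGG) or an E box (CACGTG). Suz12 is shown as a strongly marked gene, Ezh1 as a weaker PRC2 gene without any of these words, Bmi1 as the most CpG-rich and yet weakly marked gene, Cbx8 as the CBX gene with the strongest signal and Cbx7 at its downstream start.
Suz12 (chr11:79992856-79993105, plus strand): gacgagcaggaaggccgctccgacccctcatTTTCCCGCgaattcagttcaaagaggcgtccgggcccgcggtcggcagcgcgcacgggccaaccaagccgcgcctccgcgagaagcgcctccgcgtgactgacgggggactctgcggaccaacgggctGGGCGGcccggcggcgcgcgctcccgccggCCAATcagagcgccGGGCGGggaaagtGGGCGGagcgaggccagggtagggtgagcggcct
Ezh1 (chr11:101226464-101226713, minus strand): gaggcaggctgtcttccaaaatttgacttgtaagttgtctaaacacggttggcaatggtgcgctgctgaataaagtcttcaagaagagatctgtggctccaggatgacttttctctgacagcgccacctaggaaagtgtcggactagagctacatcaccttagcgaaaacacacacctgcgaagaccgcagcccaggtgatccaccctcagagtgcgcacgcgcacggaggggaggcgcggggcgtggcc
Bmi1 (chr2:18676768-18677017, plus strand): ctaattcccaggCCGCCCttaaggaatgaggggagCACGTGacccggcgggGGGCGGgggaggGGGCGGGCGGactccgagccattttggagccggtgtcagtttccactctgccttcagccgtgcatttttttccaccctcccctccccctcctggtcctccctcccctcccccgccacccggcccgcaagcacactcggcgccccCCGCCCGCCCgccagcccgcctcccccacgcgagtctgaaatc
Cbx8 (chr11:119040970-119041163, minus strand): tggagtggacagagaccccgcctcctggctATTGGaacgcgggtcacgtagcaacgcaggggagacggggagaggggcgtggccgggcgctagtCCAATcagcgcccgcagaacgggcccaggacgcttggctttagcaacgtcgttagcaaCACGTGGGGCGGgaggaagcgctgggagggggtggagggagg
Cbx7 (chr15:79932653-79932896, minus strand): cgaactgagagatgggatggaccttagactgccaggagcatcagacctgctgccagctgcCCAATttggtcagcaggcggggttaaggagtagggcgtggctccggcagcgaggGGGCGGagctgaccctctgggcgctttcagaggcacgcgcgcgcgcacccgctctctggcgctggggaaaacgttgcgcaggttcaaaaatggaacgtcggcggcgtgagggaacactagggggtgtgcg

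No TATA box (TATAAA) was found in the 9 promoters, whereas 13.6% of the 32851 RefSeq promoters of the same length held one. A CCAAT box was present in 5 of the 9 (37.4% of all promoters), at Ezh2, Eed, Suz12, Cbx7 and Cbx8. GC boxes were present in 6 of the 9 (35.7% of all), at Suz12, Bmi1, Ring1, Rnf2, Cbx7 and Cbx8. Bmi1 had 6 GC boxes, of which 2 pairs share bases. An E2F motif was found in 2 of 9 promoters (3.32% of all), Ezh2 just after the start at positions 3 to 10 counted from 0 at the first transcribed base, and Suz12 at -219 to -212. An E box was found in 2 of 9 (7.15% of all), at Bmi1 and at Cbx8, where it adjoins a GC box. These are matches of letters only, and binding was not measured.

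The promoters ran from strongly to weakly marked in an order that did not follow the division between PRC2 and PRC1. By the mean of the 4 libraries, Eed (8.89), Cbx8 (8.41), Suz12 (8.30) and Ezh2 (8.05) lay between the percentiles 85.9 and 89.1 of all protein-coding promoters. Ring1 (3.93), Ezh1 (3.66), Rnf2 (2.98), Cbx2 (2.64) and Bmi1 (2.12) lay between the percentiles 55.4 and 64.3, and Cbx7 (0.573) lay at 32.1. The order of the leading genes was not settled by the replicates: Cbx8 was above Eed in both WT libraries and below it in both ApcMin/+ libraries, and Suz12 was above Ezh2 in 3 of 4. Ezh2 was above Ring1 in 4 of 4 libraries, by 1.43 and 1.21 times in WT and 3.28 and 1.38 times in ApcMin/+. The wide step between these genes in the mean thus rests on ApcMin/+ replicate 1. Cbx2 was above Bmi1 in 4 of 4 and Bmi1 above Cbx7 in 4 of 4, while Ring1, Ezh1, Rnf2 and Cbx2 exchanged places (each neighbour higher in 3 of 4). Bmi1 was the ninth and Cbx7 the tenth of the 10 genes in every library.

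**Figure D1:**
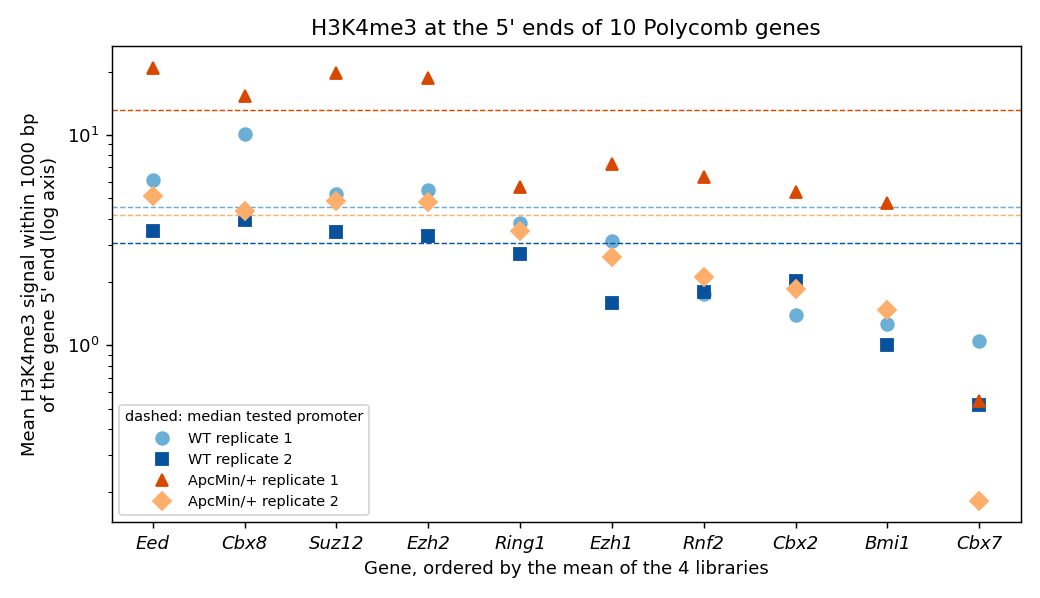
Mean H3K4me3 signal (log axis, coverage scaled to 10000000 tags) within 1000 bp of each gene's 5′ end, 1 symbol a library and genes ordered by the 4-library mean; dashed lines give each library's median over the 9930 tested promoters. ApcMin/+ replicate 1 is the highest symbol at 9 of 10 genes, and only Eed, Cbx8, Suz12 and Ezh2 lie above the dashed line of their own library in all 4.

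Among the PRC2 genes, Suz12 (chr11:79993106-80034123 on mm10) has the same start in GENCODE and RefSeq. Its signal was 5.22 and 3.46 in the WT libraries and 19.7 and 4.84 in the ApcMin/+ libraries. Eed (chr7:89954654-89980983), the reader subunit, had 6.07 and 3.49 in WT and 20.9 and 5.11 in ApcMin/+. Ezh2 (chr6:47530139-47595341), the main methyltransferase of dividing cells, had 5.45 and 3.29 in WT and 18.6 and 4.80 in ApcMin/+. The 3 core genes thus ran almost in parallel: 1 ApcMin/+ library was far above the rest, and the other lay between the WT libraries. Divided by each library's median tested promoter, the 3 genes spanned 1.15 to 1.34 in WT replicate 1, 1.08 to 1.14 in WT replicate 2, 1.41 to 1.58 in ApcMin/+ replicate 1 and 1.15 to 1.22 in ApcMin/+ replicate 2. These windows held 15 to 17 fragments in WT replicate 1 and 138 to 155 in ApcMin/+ replicate 1, so a WT replicate 1 value is the less exact (for Suz12, 15 fragments with an exact 95% Poisson interval of 8.39 to 24.7, which covers counting error only).

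Ezh1 (chr11:101191115-101226463), the methyltransferase that prevails in non-dividing cells, was marked less than Ezh2 in all 4 libraries. It had 3.14 and 1.59 in WT and 7.29 and 2.62 in ApcMin/+. Ezh2 was 1.74 and 2.07 times Ezh1 in the WT libraries and 2.56 and 1.84 times in the ApcMin/+ libraries, ratios that need no scaling between libraries. The ratios of the 2 genotypes overlap. The Ezh1 window was the most repeat-rich of the 10, with 44.5% of its bases masked as repeats in the reference (7.60% to 25.8% in the other 9), and the part of repeat content in the level was not tested.

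Among the PRC1 ligase genes, Ring1 (chr17:34020792-34024680) had 3.81 and 2.72 in WT and 5.68 and 3.49 in ApcMin/+. Rnf2 (chr1:151458004-151500955), its paralog and the principal ligase in most cells, had 1.74 and 1.78 in WT and 6.28 and 2.10 in ApcMin/+. Bmi1 (chr2:18677018-18686629) had 1.26 and 1.00 in WT and 4.76 and 1.47 in ApcMin/+. Rnf2 and Bmi1 were the members whose 2 ApcMin/+ libraries both lay above both WT libraries, although at both ApcMin/+ replicate 2 exceeded the higher WT library by less than the value of 1 fragment in WT replicate 1 (0.349). The Bmi1 value of that WT library rests on 4 fragments (exact 95% Poisson interval 1.09 to 10.2). Ring1 differed from the rest in ApcMin/+ replicate 1: it was 2.19, 1.52 and 1.66 times Rnf2 in the other 3 libraries and 0.904 times Rnf2 there, and it ranked at the percentile 60.03 of all promoters against 70.6 to 73.1 elsewhere. The start of a non-coding RNA (Gm26940) and the microRNA genes Mir219a-1 and Mir219c lie 390, 412 and 332 bp upstream of Ring1, within the window, and signal cannot be assigned between them because the mark has no strand.

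Among the CBX genes, Cbx8 (chr11:119036305-119040969) had 10.0 and 3.95 in WT and 15.3 and 4.33 in ApcMin/+. Cbx2 (chr11:119022962-119031270), whose 5′ end lies 18007 bp away on the opposite strand, had 1.39 and 2.01 in WT and 5.32 and 1.85 in ApcMin/+. Cbx8 was above Cbx2 in 4 of 4 libraries, by 7.21 and 1.97 times in WT and 2.88 and 2.34 times in ApcMin/+, so neighbours on 1 chromosome differed in level. Cbx8 was the most strongly marked of the 10 genes in both WT libraries and the fourth in both ApcMin/+ libraries. Its rank among all promoters was at the percentiles 97.3 and 87.0 in WT and 82.0 and 79.1 in ApcMin/+. Ring1 also ranked lower in both ApcMin/+ libraries than in both WT libraries, and Suz12, Ezh2 and Bmi1 ranked higher in both. The share of all promoters with such a separation of ranks was not computed, so nothing is read from it. The WT replicate 1 value rests on 29 fragments (exact 95% Poisson interval 19.4 to 41.7).

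Cbx7 (chr15:79915807-79971119) had next to no signal at its 5′ end, with 1.05 and 0.522 in WT and 0.541 and 0.183 in ApcMin/+. These values are 3, 5, 4 and 2 fragments, and 3 of the 4 lie above the library's mean background by 1.62 to 3.74 times, the last being 0.612 times background. At this depth a low level there could not be told from background. Among the annotated starts of Cbx7, the most signal lay at a group far downstream. Of its 9 GENCODE starts, 5 lie 38351 to 38603 bp downstream, the RefSeq start being 38473 bp downstream, and the windows around these carried 0.945 to 2.79 in the WT libraries and 2.28 to 2.57 in the ApcMin/+ libraries. At the start with the most signal among those of coding transcripts, 38467 bp downstream, the values were 2.58 and 1.04 in WT and 2.50 and 2.40 in ApcMin/+ (7, 10, 19 and 26 fragments). ApcMin/+ replicate 1 was not the highest library there, whereas it was at 98.3% of the 10679 promoters tested when each gene was read at its best-marked coding start. An enriched region, at least 10 times the genome-wide mean over the 4 libraries together, covered chr15:79932201-79932900, from 38219 to 38918 bp downstream of the 5′ end, and no region of that height lay elsewhere in the gene. At 5 times the mean, further regions lay away from any GENCODE start of the gene. The longest of them ran from 9519 to 10918 bp downstream (1400 bp).

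Regions of at least 5 times the genome-wide mean overlapped the promoter window of 9 of the 10 genes, all but Cbx7, as they did 58.2% of all protein-coding promoters. They ranged from 1300 bp at Ezh1 to 3100 bp at Suz12, with 2400 bp at Eed, 2200 bp at Ezh2 and 2100 bp at Cbx8, beside a median of 1800 bp over all marked promoters. The Suz12 region was longer than 83.7% of these, but at 10 times the mean it was 2000 bp, as was that of Ezh2. Its downstream part was uneven between libraries. Within 1000 bp of the Suz12 start annotated 2480 bp downstream, signal was 0 and 0.432 in WT and 4.48 and 0.565 in ApcMin/+. The same 9 genes had a region at 10 times the mean, as did 47.2% of all protein-coding promoters, but that of Bmi1 shrank to 500 bp, between 883 and 1382 bp downstream of its 5′ end, and was longer than only 4.33% of marked promoters' regions. Of 35 other Polycomb genes, 33 had a region at 5 times and 25 at 10 times the mean.

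The signal lay mostly downstream of the start, as it did on average over all genes, with Ring1 and Cbx8 on the other side. Over all protein-coding genes 63.1% of the signal within 1000 bp lay downstream. It was 78.5% at Ezh1, 72.4% at Ezh2, 68.0% at Eed and 63.4% at Suz12, with more signal downstream than upstream in 4 of 4 libraries for each of these and for Cbx2 (62.0%). At Ring1 (34.2%) and Cbx8 (35.8%) more lay upstream than downstream in all 4 libraries, and Rnf2 (48.2%) was split between libraries. Bmi1 reached its highest 20 bp bin 1100 bp downstream of the 5′ end, just beyond the window. With the window moved to the Bmi1 start annotated 789 bp downstream, the values were 1.05 and 1.15 in WT and 8.52 and 2.19 in ApcMin/+. That window shares bases with the window of the 5′ end, so it is not a separate observation, and its WT replicate 1 value rests on 3 fragments. For Ezh2 the RefSeq start lies 311 bp downstream, and its window held 7.32 and 3.95 in WT and 23.7 and 6.03 in ApcMin/+, or 1.27 times the 5′ end on average. The starts of Ezh2 more than 2000 bp into the gene reached at most 0.410 on average, so no further promoter was visible there.

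**Figure D2:**
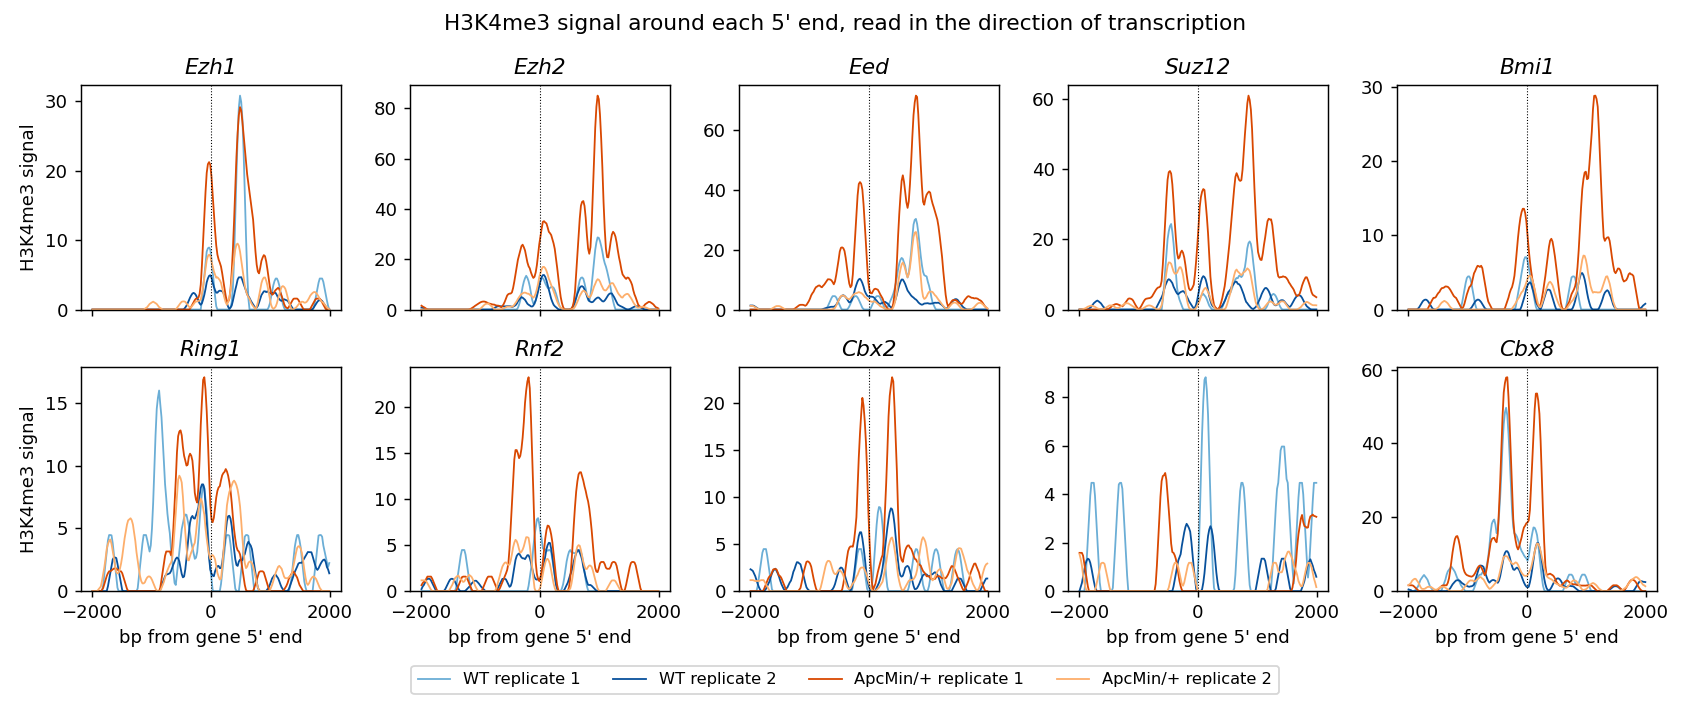
H3K4me3 signal (vertical axes, each with its own scale) in 20 bp bins, smoothed over 5 bins, from 2000 bp upstream to 2000 bp downstream of each 5′ end (dotted line), 1 line a library. In the mean of the 4 libraries Ezh1, Ezh2, Eed, Suz12 and Bmi1 carry their highest signal downstream of the start and Cbx8 and Ring1 upstream, while Cbx7 shows isolated fragments only.

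**Figure D3:**
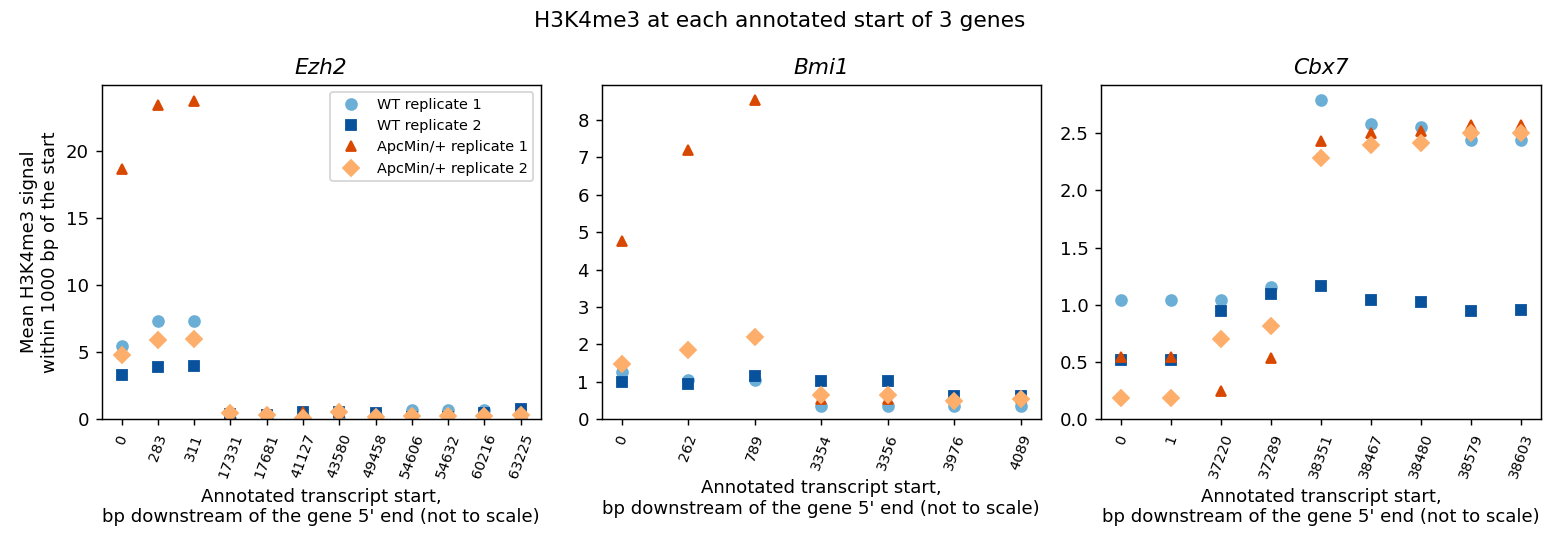
Mean H3K4me3 signal within 1000 bp of each annotated transcript start of Ezh2, Bmi1 and Cbx7, ordered by distance from the gene 5′ end and not drawn to scale, 1 symbol a library. Ezh2 is marked at its first 3 starts, Bmi1 most at 789 bp, and Cbx7 from 38351 bp onward, where ApcMin/+ replicate 1 does not stand above the others.

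CpG content separated Cbx7 from the other genes but did not order the others by signal. The ratio of observed to expected CpG in the window around the start was 0.395 at the 5′ end of Cbx7 and 0.633 at its start 38467 bp downstream. It was 0.630 at Cbx8, 0.688 at Ring1, 0.720 at Ezh1, 0.836 at Cbx2, 0.848 at Suz12, 0.884 at Rnf2, 0.885 at Eed, 0.887 at Ezh2 and 0.988 at Bmi1. Bmi1 had more CpG than 99.6% of all promoters and the ninth signal of 10, whereas Cbx8 had the lowest ratio of the 9 marked genes and the second signal. Over all genes the 7440 promoters with a ratio of at least 0.6 had a median signal of 5.61 (quartiles 2.63 and 8.44), and the 14498 below it had 0.652 (quartiles 0.289 and 2.69). Bmi1 at 2.12 thus lay below the lower quartile of the CpG-rich promoters when read at its 5′ end. At its coding start 789 bp downstream, with a ratio of 0.944, its mean was 3.22, above that quartile.

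**Figure D4:**
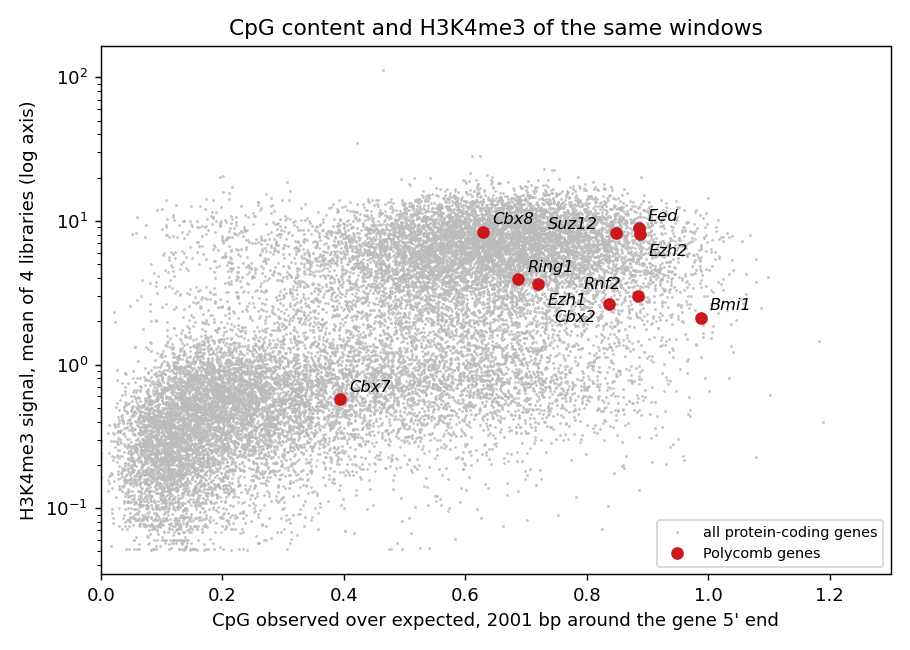
Mean H3K4me3 signal of the 4 libraries (log axis) against the observed over expected CpG ratio of the same window within 1000 bp of the 5′ end, for all protein-coding genes (grey, without 928 genes at a mean of 0.05 or less) and the 10 Polycomb genes (red). Eed, Ezh2, Suz12 and Cbx8 lie among the well marked CpG-rich promoters, Bmi1 below most promoters of its CpG content, and Cbx7 among the unmarked ones.

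No member passed the test between genotypes. limma on log2(signal + 1) called 0 of the 9 members tested and 0 of the 9930 promoters at a Benjamini-Hochberg adjusted p of 0.05, a background of 0%. At an unadjusted p of 0.05 it called 0 members and 132 promoters. Cbx7 was below the minimum level and was not tested at its 5′ end, and Bmi1 (2.12) was the member just inside the minimum of 2. The log2 differences (ApcMin/+ minus WT) were positive for all 9, from 0.33 to 1.06 with a median of 0.78, beside a median of 0.85 over all tested promoters, so the members sat close to the general shift. For the core PRC2 genes the difference was 1.06 ± 1.13 (limma's SE, n = 2 a genotype) at Suz12, 1.04 ± 1.16 at Eed and 1.02 ± 1.12 at Ezh2. All had an adjusted p of 0.683 in limma, whose SE is pooled over promoters of like signal. The difference was 0.83 ± 0.59 at Bmi1, 0.78 ± 0.70 at Rnf2, 0.74 ± 0.78 at Ezh1 and 0.66 ± 0.67 at Cbx2, again with an adjusted p of 0.683. Ring1 (0.37 ± 0.85, limma adjusted p = 0.713) and Cbx8 (0.33 ± 1.17, adjusted p = 0.795) had the smallest differences, below those of all but 6.28% and 4.87% of promoters. Both ApcMin/+ libraries lay above both WT libraries at 2 of 9 members (Rnf2 and Bmi1) against a background of 38.5%, and both below at 0 of 9 against 0.161%. Rnf2 and Bmi1, like Cbx2, averaged under 2 in WT (1.76, 1.13 and 1.70) and reached the minimum level only through ApcMin/+ replicate 1, so nothing is read from this count. With 2 mice a genotype, an exact two-sided permutation test of 1 promoter cannot go below p = 0.333.

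The differences followed ApcMin/+ replicate 1. Without that library the median over all tested promoters was 0.13 and that over the members 0.14, with 8 of 9 members between 0.09 and 0.22 and Cbx8 at -0.47 ± 0.81. Without ApcMin/+ replicate 2 instead, limma called 7 of 9 members higher in ApcMin/+ (adjusted p 0.00851 to 0.0204), all but Ring1 and Cbx8, against a background of 65.2% of promoters. The lone ApcMin/+ library is then assumed to vary like the WT pair. Whether the height of that library belongs to the genotype or to the preparation was not tested.

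Differences between genes within a library can be read after each library is centred on its own median promoter. Centring left Suz12 (0.21 ± 0.28), Eed (0.18 ± 0.28) and Ezh2 (0.17 ± 0.28) slightly above the median promoter's difference, and Bmi1 (-0.03), Rnf2 (-0.07), Ezh1 (-0.11) and Cbx2 (-0.19) near or below it. Cbx8 was at -0.52 (95% interval -1.07 to 0.03) and Ring1 at -0.48 (-1.17 to 0.20). After centring, limma called 0 of 9 members and 0.121% of promoters, and the members' adjusted p was 0.9995 in each case. Suz12 was then the member with both ApcMin/+ libraries above both WT libraries (1 of 9, background 13.1%), and Cbx8 and Ring1 were those with both below (2 of 9, background 14.3%). At Cbx8 the value stayed negative without ApcMin/+ replicate 1 (-0.60), whereas at Ring1 it was -0.04 without that library. The centred differences of Suz12, Eed and Ezh2 without that library were 0.022, -0.0095 and 0.014. Without WT replicate 1, in which Cbx8 was highest, the centred difference of Cbx8 was -0.16.

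**Figure D5:**
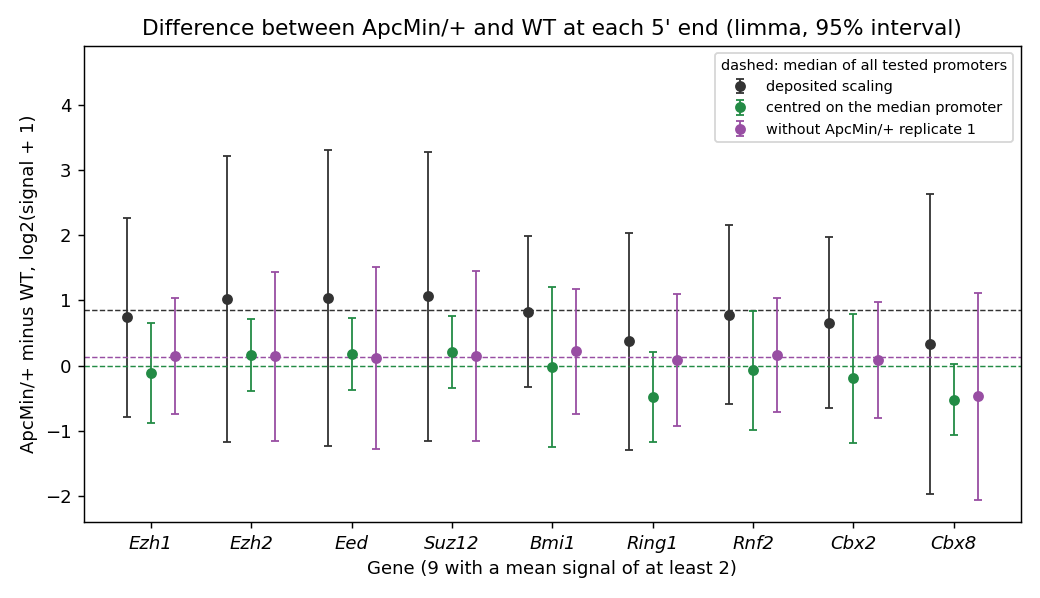
Difference between ApcMin/+ and WT (vertical axis, log2(signal + 1)) at the 9 tested genes with limma's 95% interval, under the deposited scaling, after centring and without ApcMin/+ replicate 1; dashed lines give the median of all 9930 tested promoters under each. Every interval includes 0, and Cbx8 and Ring1 are the lowest after centring.

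Read at the best-marked coding start in place of the 5′ end, all 10 members passed the minimum level. The start was chosen by the mean of the 4 libraries, to which ApcMin/+ replicate 1 contributes most, so the choice itself favours a higher ApcMin/+ value. Bmi1, at 8.52 in that library and under the minimum level in both WT libraries, then had a difference of 1.39 ± 0.66 (limma adjusted p = 0.682), and Cbx7 was at 0.35 ± 0.61 (adjusted p = 0.682), beside a median of 0.86 over the 10679 promoters tested. No promoter passed the threshold in this reading either.

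The other genes of the Polycomb system, 8 of PRC2, 21 of PRC1 and 6 that oppose Polycomb, were read in the same way. Of these 35 genes, 10 were below the minimum level, 25 were tested and 0 passed the threshold in either direction, their median log2 difference being 0.81 (0.26 to 1.37). Both ApcMin/+ libraries were above both WT libraries at 8 of the 25, against the background of 38.5%. The best marked were Rbbp4, a histone chaperone of PRC2 (8.70 and 5.31 in WT, 25.4 and 7.99 in ApcMin/+), Asxl2, a partner of the H2A deubiquitinase Bap1 (6.62 and 4.72, 19.7 and 6.27), and Pcgf1, a Bmi1 relative (8.59 and 4.32, 16.1 and 6.44). The least marked were Scml2 (mean 0.121), Bcor (0.882) and Epop (0.884). The largest differences were at Pcgf2, the closest relative of Bmi1 (1.37 ± 1.01), and Mtf2, a PRC2 accessory subunit (1.13 ± 1.00), and the smallest at Bcorl1 (0.26 ± 0.59) and Scmh1 (0.28 ± 0.64). Their limma adjusted p-values were 0.683, 0.683, 0.712 and 0.713.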

How the data were processed

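H3K4me3 CUT&RUN libraries of scraped villus cells from 2 WT and 2 ApcMin/+ mice were used, and samples were grouped by the genotype in the labels. The authors aligned paired-end reads to mm10 with Bowtie2, removed duplicates with Picard, kept fragments of 150 to 500 bp with a mapping quality of at least 10 and made coverage tracks with HOMER. The deposited values are a coverage signal that the authors brought to 10000000 tags a library and corrected for each library's mean fragment length relative to 100 bp, with no control subtracted and each replicate in its own track. Scaling to equal totals makes a promoter value depend on how much of a library lies in background. H3K9me3, total H3, no-antibody, RNA-seq and older-mouse libraries were not analysed here.

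Mean signal was taken within 1000 bp of each GENCODE M21 protein-coding gene 5′ end. No track ran past a GRCm38 chromosome end. Promoters with a mean of at least 2 (9930) were tested as log2(signal + 1) with limma 3.58.1 (trend, R 4.3.3, two-sided, Benjamini-Hochberg at 0.05). A fold on that scale understates the change of low promoters. Fragments at a promoter were summed signal over signal per tag. Enriched regions were runs of 100 bp bins at 5 times the genome-wide mean of the 4 tracks, joined over 500 bp, of at least 300 bp. Regions used all 4 libraries together, so they were not compared between genotypes. The limma step was tested on simulated promoters. With 2 mice a genotype, limma's SE and p-values rested on the spread between mice pooled over promoters of like signal. They do not measure each gene's own spread between mice.

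The members and the other gene lists were chosen with earlier results of these data known. All 10 members are named, and of the other Polycomb genes those with the 3 highest and 3 lowest levels and the 2 largest and 2 smallest differences, plus any past the threshold. Alternatives were other scalings, pseudocounts, minimum levels, windows and starts, a replicate block and each library left out.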

Additional observations from a re-analysis of the deposited data

How the results depend on the processing

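The count of members past the threshold, higher or lower in ApcMin/+, was 0 under every alternative but the deposited scaling without ApcMin/+ replicate 2. That setting leaves 1 ApcMin/+ library, through which alone Rnf2, Bmi1 and Cbx2 reached the minimum level, so its calls are not read. Of 184 member differences recomputed, 140 kept their sign and side of the threshold, 7 passed it, all under that setting, and 37 changed sign. Pseudocounts, minimum levels, windows, the best-marked start, scaling to background and the fragment length factor reversed no member. With 1 library left out, the promoters called ranged from 0 to 6479 and the members called higher from 0 to 7. The members' median ranged from 0.14 to 1.40, that of the other Polycomb genes from 0.092 to 1.57 with 0 to 16 called, and the members with both ApcMin/+ libraries highest from 2 to 9 (8 without WT replicate 1). The range was -0.47 to 1.14 for Cbx8, negative without ApcMin/+ replicate 1 and, at -0.24, without WT replicate 2. With a minimum level of 5, both ApcMin/+ libraries lay above both WT libraries at 0 of 4 tested members, and with a 500 bp window at 4 of 9. The share of all promoters was not computed there either, so these counts are not read. Depth limits the WT values most, with a median of 12.97 fragments a tested promoter in WT replicate 1 and 97.7 in ApcMin/+ replicate 1.

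Centring on the median promoter called 12 promoters and left 1 member with both ApcMin/+ libraries highest (background 13.1%). It moved the members' median to -0.072 and that of the other Polycomb genes to -0.042. It reversed Ezh1 (-0.11), Bmi1 (-0.025), Ring1 (-0.48), Rnf2 (-0.072), Cbx2 (-0.19) and Cbx8 (-0.52). Quantile normalization called 2 promoters, with medians of -0.0022 and -0.052, and reversed Ezh1 (-0.0058), Ring1 (-0.36), Rnf2 (-0.0022), Cbx2 (-0.15) and Cbx8 (-0.50). Under centring the sign change follows from removing the shift of all promoters. Under quantile normalization Bmi1 stayed positive (0.10), and the cause of the sign changes there was not tested. The labels number the replicates without saying that a number pairs the mice, so the numbers were taken as names only. Over the 9930 tested promoters, the deviations of WT replicate 1 and ApcMin/+ replicate 1 from their genotype means correlated at 0.196. That value does not settle whether the mice were paired. With the replicate block 1 promoter and 0 members were called. With the replicate block and centring, 15 promoters and 0 members were called, 1 member had both ApcMin/+ libraries highest, and the differences were those of centring alone (medians -0.072 and -0.042; Ezh1 -0.11, Bmi1 -0.025, Ring1 -0.48, Rnf2 -0.072, Cbx2 -0.19, Cbx8 -0.52).

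Centring combined with leaving out a library called 0 to 30 promoters and 0 members. Without WT replicate 1, 2 promoters were called, the medians were -0.16 and -0.066, and Bmi1 (-0.16), Ring1 (-0.52), Rnf2 (-0.31), Cbx2 (-0.58) and Cbx8 (-0.16) were negative. Without WT replicate 2, 18 were called, the medians were 0.095 and -0.052, and Ezh1 (-0.23), Ring1 (-0.44) and Cbx8 (-0.88) were negative. Without ApcMin/+ replicate 1, the medians were 0.014 and -0.035, and Eed (-0.0095), Ring1 (-0.041), Cbx2 (-0.041) and Cbx8 (-0.60) were negative. Without ApcMin/+ replicate 2, 30 were called, the medians were -0.18 and -0.012, and Ezh1 (-0.24), Bmi1 (-0.14), Ring1 (-0.92), Rnf2 (-0.18), Cbx2 (-0.34) and Cbx8 (-0.44) were negative. The cause of these moves was not tested.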

Other observations

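Of 10 classic targets of Polycomb silencing (Cdkn2a, Pax3, Pax6, Sox1, Neurog1, Lhx2, Nkx2-2, Olig2, Hoxd11 and Hoxd13), 9 were below a mean signal of 1 and were not tested. Cdkn2a, the cell cycle inhibitor locus that Bmi1 and Ezh2 silence in many cell types, was the exception, with 2.65 and 2.34 in WT and 8.41 and 3.33 in ApcMin/+. Its log2 difference was 0.87 (limma adjusted p = 0.683), close to the median promoter. Summed over the 10 genes, signal was 10.6 and 6.42 in WT and 12.2 and 9.99 in ApcMin/+.

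Of 8 crypt and cycling markers, 5 were tested and 0 passed the limma threshold (adjusted p = 0.683 for each). Both ApcMin/+ libraries were above both WT libraries at 4 of them against a background of 38.5%, but Smoc2 and Ccnb1 among the 4 averaged under 2 in WT (1.72 and 1.81) and reached the minimum level only through ApcMin/+, so the count is a description only. Top2a, a topoisomerase of dividing cells, had 5.56 and 4.19 in WT and 22.6 and 6.42 in ApcMin/+, and Ccnb1, a mitotic cyclin, had 1.74 and 1.88 in WT and 7.82 and 4.61 in ApcMin/+. The median difference of the 5 was 1.08 and, without ApcMin/+ replicate 1, 0.52. Ccnb1 (1.00) and Smoc2 (0.59), which passed the minimum only through ApcMin/+, were the largest of the 5 without that library. No contrast with the Polycomb genes' median of 0.14 is therefore read. Mcm2, a replication helicase subunit, was at 0.44, at -0.41 after centring and at -0.095 without ApcMin/+ replicate 1, and Smoc2 was at -0.07 after centring. The stem cell genes Lgr5, Olfm4 and Ascl2 stayed below the minimum level. The part of a change in crypt cell share in the Polycomb values was not tested.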
